A study of Homo sapiens with 13 samples.

Results

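Chromosome 18 was described here through its 4018 non-overlapping windows of 20 kb, out of 151538 such windows on 23 chromosomes, and every full window on the 20 kb grid was taken. Each window carries a polarity score in up to 13 libraries of TrAEL-seq, an assay that sequences free 3′ ends of DNA and through them the strand bias that replication forks leave. The cells were PC9, a human non-small-cell lung cancer line whose growth depends on mutant EGFR, and osimertinib is an EGFR inhibitor given in DMSO. Untreated cells (3 libraries) were harvested in normal growth, and cells exposed continuously to 500 nM osimertinib were harvested at day 7 (2 libraries), day 14 (2 libraries) and day 28 (4 libraries), the day 28 cultures being non-proliferative per the submitters. The 2 resistant lines, line 5 and line 10, are each 1 line grown from a single-cell clone of PC9, were kept in 500 nM osimertinib and were harvested in normal growth. Day 28 replicates 3 and 4 carry a day 28 title but a 7 days treatment label, so results were also computed without them. Separate cultures behind the replicates of a group are not mentioned in the labels, and p-values therefore cover only the spread among these libraries.

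In S phase, forks leave an initiation zone in both directions, so the strand bias flips sign where forks diverge, and flips back where forks from neighbouring zones meet. Initiation zones of human cells tend to lie beside active genes, while large gene-free stretches are usually replicated by forks from distant or scattered starts. Chromosome 18 is known as a gene-poor chromosome that lies near the nuclear edge and replicates late. Its low gene content held in the annotation, with 270 protein-coding genes or 3.36 per Mb, the second lowest of 23 chromosomes. Replication timing itself could not be checked, since a polarity score gives the direction of forks and not their time. Polarity carries no expression values, so the identity of the cells could not be checked against marker genes either. A rise of polarity along the chromosome was taken here as initiation and a fall as termination, an assignment made after the data were seen, since the sources used here do not say which strand counts as positive.

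The 5 steepest initiation zones of chromosome 18 in untreated cells each held at least 1 gene start. Shown is the sequence before the protein-coding gene start nearest to the zone centre, among starts with a fitting promoter entry. The starts lay 7.5 kb (VPS4B), 64.7 kb (TNFRSF11A), 62.2 kb (GREB1L), 19.0 kb (SMAD7) and 48.3 kb (RAB31) from the centres, and need not lie where forks diverged. For the zone at PPP4R1 and RAB31 the sequence of RAB31 was taken, whose entry lies wholly before the outermost start of its gene. Each sequence is the 250 bases before the start, read 5′ to 3′ on the strand of the gene from the RefSeq promoter table of build GRCh38.p14, with every CG dinucleotide in capitals.
VPS4B: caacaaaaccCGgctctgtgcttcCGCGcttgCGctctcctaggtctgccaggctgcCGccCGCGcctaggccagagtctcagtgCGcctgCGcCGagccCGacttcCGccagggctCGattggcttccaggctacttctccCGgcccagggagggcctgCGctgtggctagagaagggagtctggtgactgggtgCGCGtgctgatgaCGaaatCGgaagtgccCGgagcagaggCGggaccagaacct
TNFRSF11A: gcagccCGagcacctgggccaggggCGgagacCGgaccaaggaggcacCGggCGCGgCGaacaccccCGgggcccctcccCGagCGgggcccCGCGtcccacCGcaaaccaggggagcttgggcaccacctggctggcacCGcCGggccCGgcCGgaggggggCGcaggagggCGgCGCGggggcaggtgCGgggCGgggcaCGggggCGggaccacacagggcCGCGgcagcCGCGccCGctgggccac
GREB1L: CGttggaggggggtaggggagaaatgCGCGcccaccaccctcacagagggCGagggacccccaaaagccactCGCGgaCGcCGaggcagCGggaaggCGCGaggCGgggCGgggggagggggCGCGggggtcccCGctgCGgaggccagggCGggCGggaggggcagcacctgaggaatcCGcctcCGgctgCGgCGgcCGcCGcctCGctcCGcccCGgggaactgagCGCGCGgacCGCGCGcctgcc
SMAD7: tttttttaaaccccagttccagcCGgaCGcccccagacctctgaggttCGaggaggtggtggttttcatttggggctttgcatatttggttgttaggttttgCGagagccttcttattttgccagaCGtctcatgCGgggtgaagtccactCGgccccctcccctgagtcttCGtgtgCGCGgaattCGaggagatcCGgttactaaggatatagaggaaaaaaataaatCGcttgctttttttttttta
RAB31: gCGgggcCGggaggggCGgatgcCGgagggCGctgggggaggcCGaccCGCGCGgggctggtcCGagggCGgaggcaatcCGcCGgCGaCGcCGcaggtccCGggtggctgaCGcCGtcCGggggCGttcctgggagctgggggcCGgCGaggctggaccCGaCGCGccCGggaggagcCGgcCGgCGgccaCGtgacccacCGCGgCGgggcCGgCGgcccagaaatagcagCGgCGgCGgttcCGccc

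VPS4B, which encodes an ATPase that takes apart ESCRT complexes on membranes, lies at the zone with the largest rise, and its 250 bases are chr18:63422477-63422726 on the minus strand. TNFRSF11A encodes the receptor RANK (chr18:62325060-62325309, plus strand), and GREB1L encodes a cofactor of retinoic acid signalling (chr18:21241982-21242231, plus strand). SMAD7 encodes an inhibitor of TGF-β signalling (chr18:48950966-48951215, minus strand), and RAB31 encodes a small GTPase of vesicle transport (chr18:9708051-9708300, plus strand). Their CG counts were 21 for VPS4B, 30 for TNFRSF11A, 34 for GREB1L, 13 for SMAD7 and 40 for RAB31. The median was 17 over the 365 entries of protein-coding genes of chromosome 18, with SMAD7 below it. It was 11 over all 35116 promoter entries of the genome, which are not limited to protein-coding genes. The GGGCGG box, searched on both strands, was present in VPS4B, TNFRSF11A, GREB1L and RAB31 and not in these letters of SMAD7, while TATAAA was in none of the 5. Over the 138 promoter entries of chromosome 18 genes that start inside an untreated initiation zone, 65.9% held GGGCGG and the median CG count was 23. Over the 227 entries of its other protein-coding genes, 43.6% held GGGCGG and the median was 15. The share was 52.05% over the 365 protein-coding entries of the chromosome and 42.6% over all entries of the genome. TATAAA, also on both strands, was in 7.97% of the 138 entries, 11.0% of the 227 and 10.7% of all entries of the genome. The zones were chosen from the polarity of the untreated libraries, and these shares are given as a description with no test.

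Before any comparison, the share of chromosome 18 windows with a value differed sharply between libraries. In untreated cells 92.1%, 92.6% and 93.7% of its windows had a value, close to the 92.6%, 92.6% and 93.4% on the other chromosomes. Day 7 replicate 1 stood apart with 44.5% on chromosome 18 and 61.9% elsewhere, while day 7 replicate 2 had 90.9% and 92.0%. At day 14 the shares were 77.5% and 72.2% on chromosome 18 against 85.8% and 82.0% elsewhere. Day 28 replicates 1 and 4 had 80.5% and 78.9% on chromosome 18 against 86.6% and 86.5% elsewhere, and day 28 replicates 2 and 3 and both resistant lines had at least 92.6%. In these 5 sparse libraries the share was lower on the long arm than on the short arm, the reverse of the other libraries: day 7 replicate 1 had a value in 67.3% of short-arm windows and 39.0% of long-arm windows. Within its long arm, 44.6% of windows over protein-coding genes and 29.3% of windows in gaps of at least 500 kb between such genes had a value. The depth behind the scores is unknown, and these shares are 1 indirect sign of it. Another is a score that a few reads are enough to give, such as -60.0 in day 28 replicates 1 and 4 for a MYO5B window below. The part of depth in the results below was not tested except where a value without a library is given.

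**Figure D1:**
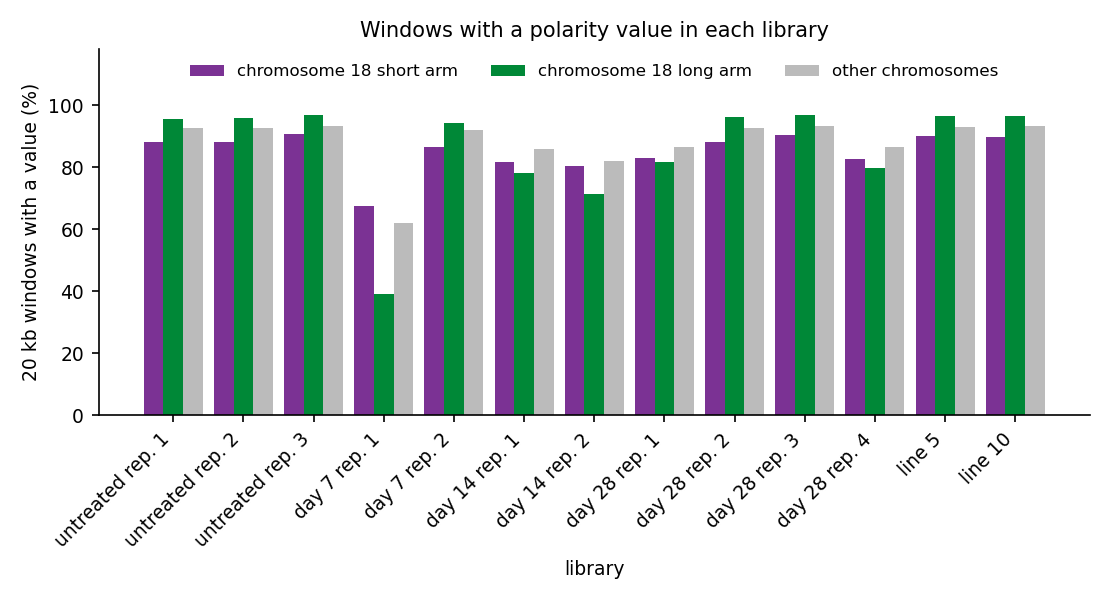
Share of 20 kb windows with a polarity value (vertical axis, %) in each of the 13 libraries, for the short arm (872 windows) and long arm (3076 windows) of chromosome 18 and for the other chromosomes. The long-arm bar falls below the short-arm bar in day 7 replicate 1 (39.0% against 67.3%), both day 14 libraries and day 28 replicates 1 and 4, and stands above it in the other libraries.

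As a result 1246 windows of chromosome 18 (31.0%, the third lowest share of 23 chromosomes) had a value in all 13 libraries, 3675 had one in all 3 untreated libraries and 232 had none anywhere. The fully valued windows were 552 of 872 on the short arm and 694 of 3076 on the long arm, the arms being split at the 17440001 to 18840000 run with no untreated value. The 6005.8 kb gene-free stretch between ANKRD30B and ROCK1, which holds the centromere, had no fully valued window, and the 4180.5 kb stretch before PIK3C3 had 13 of 208. Per-library values below refer to the fully valued windows unless stated, and so lean toward the short arm and toward genes.

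Untreated cells showed a strong and repeatable fork direction on chromosome 18 despite its few genes. The reproducible amplitude, the square root of the covariance between untreated libraries over its 3675 windows, was 46.7 points on the polarity scale (45.3 to 49.0 over the 3 pairs), rank 19 of 23 from the lowest. The median size of the mean untreated polarity was 36.4 points, rank 20 of 23, and 29.6% of windows lay within 20 points of 0. Sign changes were rare: 81 initiation zones, defined as unbroken rises of at least 40 points through 0 in the smoothed untreated mean, gave 1.10 per Mb, the third lowest density of 23 chromosomes. The 61 termination zones, the mirror image, gave 0.83 per Mb, the lowest of 23 chromosomes. The zones had median widths of 160 kb for initiation and 200 kb for termination. Chromosome 13, the only one with fewer genes per Mb (2.96), had the lowest amplitude of the 23, 40.6 points.

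**Figure D2:**
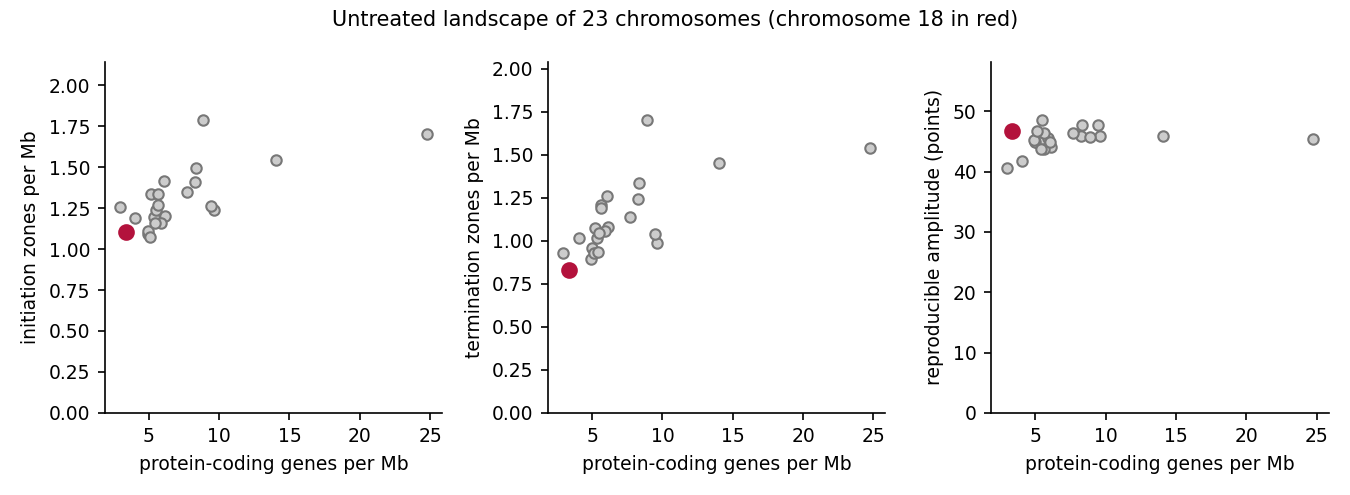
Untreated landscape of 23 chromosomes, each a point, against protein-coding genes per Mb (horizontal axis): initiation zones per Mb, termination zones per Mb and reproducible amplitude in polarity points. Chromosome 18, in red, has 3.36 genes per Mb, 1.10 initiation and 0.83 termination zones per Mb, and an amplitude of 46.7 points.

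Within the chromosome the untreated landscape differed between genes and the gaps between them. Windows over protein-coding genes had an amplitude of 51.9 points over 1661 windows, and windows in gene-free gaps of at least 500 kb had 39.2 points over 1325 windows. Initiation zone centres were most dense in the shorter intergenic stretches (2.47 per Mb), then in gene bodies (1.02 per Mb) and least dense in the large gaps (0.49 per Mb). Termination centres showed another order, with 1.35 per Mb in gene bodies, 0.44 per Mb in shorter intergenic stretches and 0.38 per Mb in the large gaps. A protein-coding gene started in 55 of the 81 initiation zones (67.9%) and in 17 of the 61 termination zones (27.9%). The initiation zones covered 18.3% of the windows valued in untreated cells and held 41.9% of the gene starts. The termination zones covered 16.6% of these windows and held 8.12% of the gene starts. The short arm was more structured than the long arm, with an amplitude of 51.5 against 45.4 points and 1.52 against 0.99 initiation zones per Mb. Over segments of 4 Mb the amplitude ran from 29.2 points at 28000001 to 32000000, where the gap between CDH2 and DSC3 lies, to 57.2 points at 8000001 to 12000000. These levels describe the 3 untreated libraries, and no test was made between regions of 1 chromosome.

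This landscape was weaker in every osimertinib library. The amplitude of a library was measured by regressing its polarity on untreated libraries that did not include it. A value of 1 means that the untreated pattern was followed at full size, and smaller swings or a less similar pattern both lower it. The Pearson correlation with the same untreated libraries was 0.914, 0.903 and 0.918 in untreated and 0.353 to 0.815 in osimertinib libraries. The median size of polarity over fully valued windows was 41.3 to 48.7 points in untreated and 18.2 to 40.0 in osimertinib libraries, day 14 replicate 2 being highest. On chromosome 18 the untreated libraries had amplitudes of 0.976, 1.02 and 0.830. The day 7 libraries had 0.527 and 0.326, and the day 14 libraries had 0.364 and 0.652. The day 28 libraries had 0.267, 0.257, 0.435 and 0.305. Every osimertinib library lay below every untreated library, day 14 replicate 2 being nearest, and the day 28 group held the lowest values. The mean was 0.941 ± 0.098 (SD, n = 3) in untreated and 0.392 ± 0.138 (SD, n = 8) over all osimertinib libraries, a difference of -0.55 in slope and 41.6% of the untreated level. The two-sided exact permutation test gave p = 0.0121, the smallest this design allows, and 0.0727 after Benjamini-Hochberg adjustment over the 6 group comparisons; none of the group comparisons tested in this way here or below passed 0.05 after adjustment. Day 28 alone kept 33.6% of the untreated amplitude (exact p = 0.0571, the smallest possible for 4 against 3 libraries, adjusted 0.171), and for day 7 and for day 14 the smallest possible exact p of 0.2 was reached. The osimertinib difference was -0.56 with day 7 replicate 1 left out and -0.54 with day 28 replicates 3 and 4 left out.

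**Figure D3:**
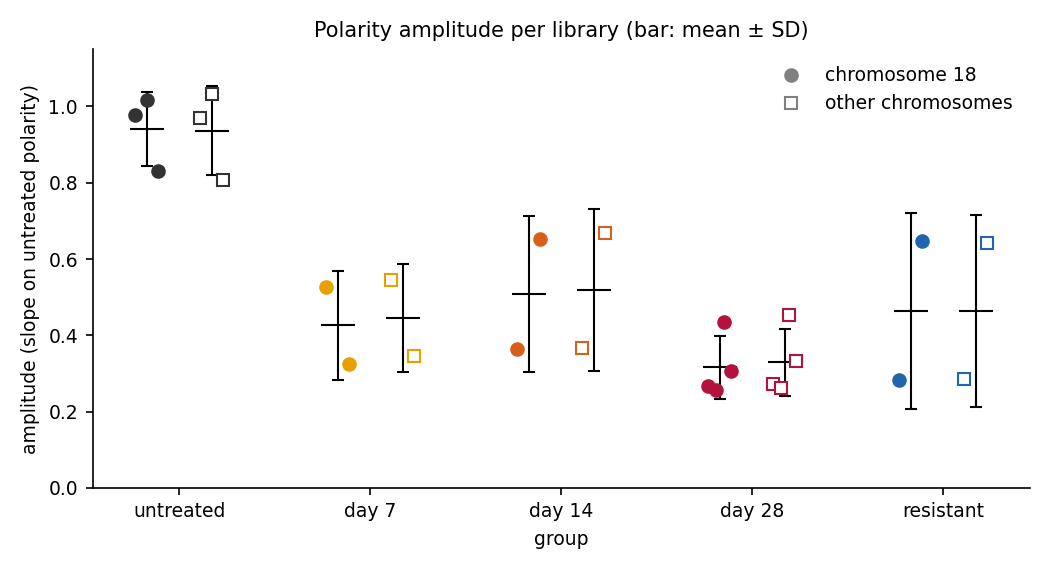
Amplitude of polarity (slope on the untreated mean, vertical axis) for each library by group, on chromosome 18 (filled circles) and on the other chromosomes (open squares), with bars for the mean ± SD. On chromosome 18 the untreated libraries lie between 0.830 and 1.02, the 8 osimertinib libraries between 0.257 and 0.652, and the resistant lines at 0.282 and 0.646.

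The loss on chromosome 18 was close to that of the rest of the genome. On the other chromosomes together, over 79105 windows, osimertinib libraries kept 43.3% of the untreated amplitude and day 28 libraries 35.2%. The log2 ratio of the chromosome 18 amplitude to that of the other chromosomes was 0.009 ± 0.032 (SD, n = 3) in untreated and -0.05 ± 0.04 (SD, n = 8) in osimertinib libraries. The difference of -0.06 had an exact permutation p of 0.0485 and 0.291 after adjustment over 6 comparisons.
It no longer passed 0.05 when all windows valued in a library and in untreated cells were used (-0.03, exact p = 0.364), when the long arm alone was compared (-0.06, p = 0.339, an exact test added after seeing the data), without day 28 replicates 3 and 4 (-0.04, exact p = 0.143), or without any single untreated library, day 7 replicate 2, day 14 replicate 2 or day 28 replicate 2, 3 or 4 (exact p from 0.05 to 0.222, the value nearest to 0 being -0.05). Chromosome 18 had the second lowest share of amplitude kept under osimertinib of 23 chromosomes, and rank 13 in the resistant lines.

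Both kinds of sign change were shallower in every osimertinib library. At the initiation zones of chromosome 18, called on untreated pairs and measured in the untreated library left out, polarity rose by 90.7, 101.0 and 86.0 points in the untreated libraries. The same zones rose by 45.3 and 28.2 points at day 7, by 29.5 and 49.6 points at day 14 and by 16.8, 21.1, 39.3 and 21.4 points at day 28. All 8 values lay below the 3 untreated ones. The mean rise was 92.6 ± 7.7 points (SD, n = 3) in untreated and 31.4 ± 12.1 points (SD, n = 8) under osimertinib, with an exact permutation p of 0.0121 (adjusted 0.0727). Polarity across termination zones changed by -83.0, -99.4 and -61.8 points in untreated libraries and by -25.0 ± 11.7 points (SD, n = 8) under osimertinib, from -45.4 to -12.8, again with an exact p of 0.0121 (adjusted 0.0727). On the other chromosomes the rise was 87.6 points in untreated and 31.0 under osimertinib, and the fall -75.3 and -25.2 points. Over single zones, called here on all 3 untreated libraries and so without a test, all 81 initiation zones and all 61 termination zones of chromosome 18 were smaller in the osimertinib mean than in the untreated mean.

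**Figure D4:**
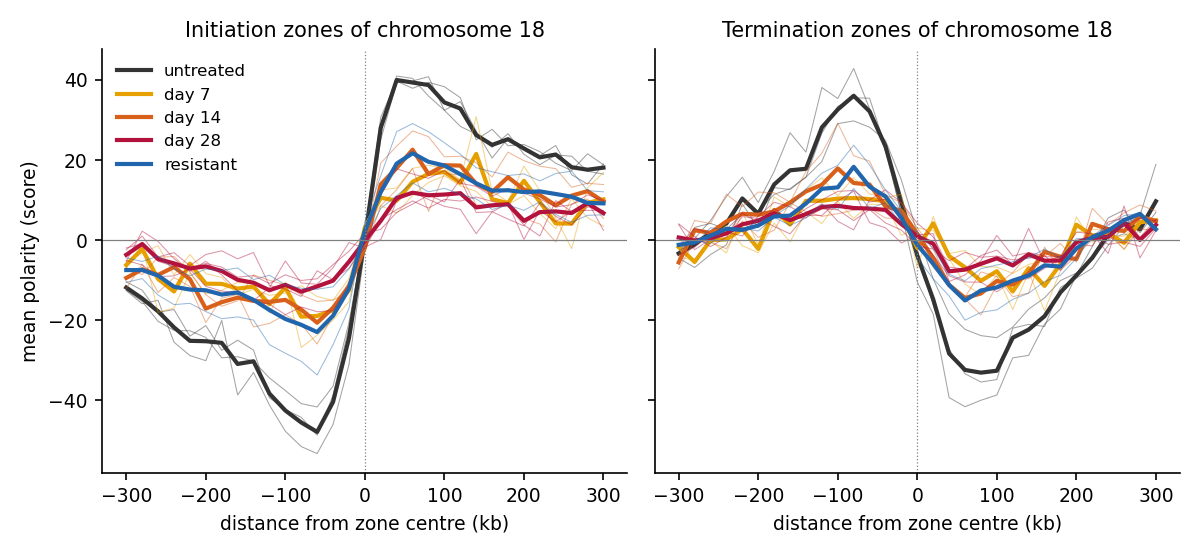
Mean polarity (vertical axis, score) against distance from the zone centre (horizontal axis, kb) at initiation and termination zones of chromosome 18, with thin lines for libraries and thick lines for group means. Zones were called on untreated pairs and each untreated library is drawn at the zones of the other 2. The group curves swing less around the centre in each osimertinib group and in the resistant lines than in untreated cells.

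The steepest initiation zone of the chromosome, 63300001 to 63560000, held the starts of BCL2 (an inhibitor of apoptosis), KDSR (an enzyme of sphingolipid synthesis), VPS4B and the serpin genes SERPINB5 and SERPINB12. Polarity rose there by 189, 189 and 162 points in untreated libraries, by 122 and 37.1 at day 7, by 41.8 and 57.3 at day 14 and by 11.5, 17.9, 60.4 and 60.8 points at day 28. Line 5 had 36.0 points and line 10 had 120 points, so line 10 and day 7 replicate 1 lay nearest to untreated cells. The zone at TNFRSF11A and ZCCHC2, 62200001 to 62580000, rose by 166 points in the untreated mean and 64.5 in the osimertinib mean, in which day 7 replicate 1 had no value. The zone between ROCK1, a kinase of the actin cytoskeleton, and GREB1L (21060001 to 21300000) rose by 163 and 67.5 points, and the zone at SMAD7 (48840001 to 49100000) by 161 and 63.5 points. The fifth, at PPP4R1 and RAB31 on the short arm (9580001 to 9740000), rose by 150 and 43.6 points. Among termination zones the steepest was at 49160001 to 49440000, with -167 points in untreated and -60.3 under osimertinib. The next were at 1100001 to 1400000, in the gap between ADCYAP1 and METTL4 (-166 and -56.2 points), and at 7840001 to 8100000 (-159 and -35.9 points). None of these 3 held a protein-coding gene start. These zones were ranked by their untreated values, which are therefore high by choice, and no test was made on them.

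Gene bodies kept less of their amplitude than gene deserts, here and on the other chromosomes. Over 659 fully valued windows in protein-coding genes the amplitude was 0.952 ± 0.094 (SD, n = 3) in untreated and 0.373 ± 0.139 (SD, n = 8) under osimertinib, or 39.2% kept. Over 285 windows in the large gene-free gaps it was 0.907 ± 0.130 and 0.427 ± 0.161, or 47.1% kept. The log2 ratio of gene bodies to deserts was 0.057, 0.019 and 0.154 in untreated libraries. It was -0.20 and -0.22 at day 7, -0.08 and -0.27 at day 14 and -0.42, -0.26, 0.016 and -0.16 at day 28. All 8 lay below the untreated libraries, day 28 replicate 3 only just. The mean difference of -0.28 had an exact permutation p of 0.0121 (adjusted 0.0727). It missed 0.05 on windows shifted by 10 kb (-0.22, exact p = 0.0727) and after dropping untreated replicate 1 (-0.27, exact p = 0.133), untreated replicate 3 (-0.26, exact p = 0.0889), day 28 replicate 1 (-0.22, exact p = 0.0667) or day 28 replicate 4 (-0.26, exact p = 0.05). The same ratio on the other chromosomes, added after seeing the data, differed by -0.27 between osimertinib and untreated libraries (exact p = 0.0121), and chromosome 18 differed from them by -0.004 (exact p = 0.933).

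The short arm kept 41.9% of its untreated amplitude under osimertinib and the long arm 41.4%. The log2 ratio of short to long arm was 0.05 ± 0.03 (SD, n = 3) in untreated and 0.04 ± 0.17 (SD, n = 8) under osimertinib, a difference of -0.008 with an exact permutation p of 0.752. Over segments of 4 Mb, using windows valued in the untreated libraries and in the library itself, the share kept under osimertinib ran from 34.8% at 36000001 to 40000000 to 57.0% at 64000001 to 68000000, the stretch around CDH7, CDH19 and DSEL where day 7 replicate 1 had a value in 22.5% of windows.

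Polarity in untreated cells also leaned along the direction of genes on chromosome 18. With each gene's mean polarity signed by its strand, 203 protein-coding genes with values gave 6.92, 8.21 and 5.45 points in untreated libraries. The day 7 libraries had 4.38 and 4.41 points, the day 14 libraries 5.31 and 4.93, and the day 28 libraries 0.968, 0.651, 1.31 and 0.733. Every osimertinib library lay below the untreated ones, and day 28 lay below all other groups. The mean was 6.86 ± 1.38 points (SD, n = 3) in untreated and 2.84 ± 2.08 (SD, n = 8) under osimertinib, with an exact permutation p of 0.0121 (adjusted 0.0727), and day 28 kept 13.4% of the untreated value. On 13451 genes of the other chromosomes the mean was 3.32 points in untreated and 1.89 under osimertinib (exact p = 0.0848). The difference between chromosome 18 and the others, added after seeing the data, was 3.54 points in untreated and 0.943 under osimertinib (exact p = 0.0242, adjusted over 6 comparisons 0.145). A difference in points also shrinks when polarity shrinks everywhere, so this test cannot tell whether chromosome 18 lost more in proportion. The share kept under osimertinib was 41.4% on chromosome 18 and 57.1% on the others, and these shares were not tested against each other.

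Window by window, the losses were seen best at 100 kb, where 5 adjacent windows were averaged. Each group was set against untreated in 1 limma fit over all tested windows of the genome, with Benjamini-Hochberg adjustment over all of them and a threshold of 0.05. At day 28, 167 of 315 tested windows of 100 kb on chromosome 18 were called, or 53.0%, beside a genome background of 46.7%. All 167 moved toward 0. This means a change against the sign of the untreated mean, so a window or gene that crossed 0 also counts, here and for the calls below. Untreated values enter both the call and this direction, so the direction is partly fixed by the choice, here and for the calls below. The count was 123 to 176 when any single library was left out, and 146 without day 28 replicates 3 and 4. At day 7, 86 of 315 were called (27.3%, background 23.7%), falling to 40 and 36 when untreated replicate 1 or 2 was dropped and to 52 when day 7 replicate 2 was. At day 14, 48 were called (15.2%, background 13.4%), falling to 17 and 10 when untreated replicate 1 or 2 was dropped and to 27 when day 14 replicate 1 was. The median untreated polarity of these windows was also larger in size on chromosome 18 (39.6 points) than over all tested windows (32.3 points), and at day 28 the medians were 14.8 and 13.3 points.

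At 20 kb, where scores are noisier, 190 of 1246 windows of chromosome 18 (15.2%, background 11.5%) were called at day 28, all toward 0, with 91 higher and 99 lower (backgrounds 5.85% and 5.62%). This count rests on the full set of libraries: it fell to 0 when any single untreated library or day 28 replicate 1 was left out, to 1 for day 28 replicate 2, to 88 for day 28 replicate 4 and to 120 for day 28 replicates 3 and 4 together. At day 7, 31 were called (2.49%, background 1.1%). That count was 0 without any single untreated library, 3 without day 7 replicate 1, 11 to 16 without day 28 replicate 2 or 3 or either resistant line, and 54 to 80 without day 7 replicate 2, either day 14 library or day 28 replicate 1. At day 14, 12 were called (0.963%, background 0.631%), and 0 to 51 when single libraries were left out, day 28 replicates 2 and 4 being the only ones that moved the count by no more than 1.5 times. Of the day 28 calls 128 lay among 659 windows over genes (19.4%) and 34 among 285 windows in large gaps (11.9%), where the median size of the difference was 36.9 and 22.9 points. The short arm had 96 calls in 552 windows and the long arm 94 in 694.

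The largest day 28 changes among called windows of 100 kb fell beside each other at the serpin cluster and around MBD2, which encodes a reader of methylated DNA. The window 63500001 to 63600000, over SERPINB5, SERPINB12 and SERPINB13, had 90.5, 99.0 and 85.5 points in untreated libraries and 26.7, 14.0, 36.6 and 15.5 points at day 28. Its neighbour 63600001 to 63700000, over SERPINB4 and SERPINB3, went from 81.8 ± 7.2 (SD, n = 3) to 14.6 ± 14.4 points (SD, n = 4), and 70500001 to 70600000, nearest to SOCS6, from 92.5 ± 6.0 to 29.0 ± 12.4 points. In the other direction, 54100001 to 54200000 over MBD2 went from -84.6 ± 9.5 to -21.2 ± 19.2 points, the adjoining 54000001 to 54100000 from -85.1 ± 7.1 to -22.2 ± 19.5 points, and 8300001 to 8400000 over PTPRM, a receptor phosphatase, from -84.2 ± 5.5 to -21.4 ± 12.4 points. In none of the 6 did the day 28 libraries reach the untreated range. The 6 windows were chosen as the largest called changes, so this separation follows in part from the choice.
At 20 kb the largest change called at day 28 was a reversal in a window of MYO5B, which encodes a myosin motor of vesicle recycling. The window 49880001 to 49900000 had 71.4, 80.0 and 70.9 points in untreated libraries and -60.0, -26.3, -33.3 and -60.0 points at day 28, a difference of -119 ± 17.6 (SE), with a limma adjusted p of 0.0126. The next decreases were in ANKRD12 (9140001 to 9160000, from 82.6 to -17.0 points) and beside MEP1B (32160001 to 32180000, from 86.5 to -4.6 points). The largest increases were in SS18 (26020001 to 26040000, from -83.7 to 8.4 points), SLC14A2 (45480001 to 45500000, from -76.1 to 15.9 points) and BCL2 (63220001 to 63240000, from -77.3 to 12.6 points). The SLC14A2 and MEP1B windows were unsteady, with day 28 libraries from -37.5 to 100.0 points in the first and from the lower end of the scale to 53.8 points in the second.

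Averaged over whole genes, 91 of 230 tested protein-coding genes of chromosome 18 were called at day 28 (39.6%, background 33.5%), 47 higher and 44 lower (backgrounds 16.8% and 16.7%) and all toward 0. Dropping untreated replicate 1 or 2 gave 32 or 21 calls, dropping day 28 replicate 2 gave 57, and dropping both libraries with conflicting labels gave 63. At day 7, 28 genes were called (12.2%, background 7.72%), and 0 without day 7 replicate 1 or any single untreated library, 15 and 18 without day 28 replicates 2 and 3. At day 14, 13 were called (5.65%, background 3.1%), 0 without untreated replicate 1 or 2, and 3 to 5 without untreated replicate 3, day 14 replicate 1 or day 28 replicate 2, 3 or 4. The rise across a gene, the mean of the 3 windows to its right minus the 3 to its left, was tested in 89 genes. It was called in 30 at day 28 (33.7%, background 23.5%), in 14 at day 7 (15.7%, background 8.53%) and in 4 at day 14 (4.49%, background 4.87%), and all of these moved toward 0. Leaving out untreated replicates 1 and 2 in turn gave 18 and 11 at day 28. At day 7 dropping untreated replicate 1, 2 or 3 gave 3, 1 or 6 and dropping day 7 replicate 1 gave 1. At day 14 the count ran from 0 to 10. A change of polarity over a gene tells how forks crossed it and says nothing of its expression or dosage.

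Among 24 cancer and signalling genes of the chromosome, 13 of 23 tested were called for mean polarity at day 28, 10 higher and 3 lower (background 33.5% of genes, 16.8% higher and 16.7% lower). The median size of polarity went from 41.0 to 14.3 points, beside 33.8 and 12.8 points over all tested genes. SMAD4, the common partner in TGF-β and BMP signalling that pancreatic and colon cancers often lose, had 85.4, 88.3 and 75.8 points in untreated libraries and 3.3, 32.5, 42.7 and 18.7 at day 28. It changed by -58.9 ± 11.9 (SE) with a limma adjusted p of 0.0095. SMAD2, a receptor-activated member of the same pathway, changed from -63.9 ± 8.6 to -21.8 ± 14.4 points (adjusted p = 0.011 in limma). YES1, a SRC family kinase, had -79.9, -72.5 and -64.5 points in untreated libraries and -16.8, -8.5, -32.8 and -19.1 at day 28, and SS18, a subunit of BAF chromatin remodelling complexes, went from -76.9 ± 10.6 to -15.9 ± 10.4 points. KDSR went from -73.0 ± 10.0 to -15.9 ± 10.9 points and BCL2 from -49.2 ± 15.5 to -6.1 ± 12.4 points. For these 4 genes every day 28 library lay above every untreated one, but they are named because they were called. The calls of SMAD2 and BCL2 were lost without untreated replicate 1 or 2.

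The other called members also moved toward 0. RBBP8, whose product CtIP starts the resection of DNA breaks, went from -60.8 to -12.96 points, ROCK1 from -84.7 to -40.4, MBD2 from -80.4 to -31.6 and TNFRSF11A from -59.8 to -27.4. TYMS, the thymidylate synthase that makes dTMP, went from -41.0 to -6.2 points. TGIF1, a repressor in TGF-β signalling, went from 25.0 to -0.8 and SETBP1, a nuclear protein mutated in myeloid disease, from 20.8 to -0.8 points. All of these but RBBP8 lost the call when any single untreated library was left out. The members not called were DCC, a netrin receptor that spans chr18:52340197-53535899 (5.2 in untreated and -4.4 points at day 28), SMAD7 (-4.7 and -11.8), CDH2, the neural cadherin (1.0 and 14.3), PHLPP1, an AKT phosphatase (2.8 and -3.7), PMAIP1, a BH3-only activator of apoptosis (7.1 and 13.7), and NEDD4L, a ubiquitin ligase (19.3 and 4.0). The rest were MALT1, a protease of NF-κB signalling (27.0 and 2.7), TWSG1, a BMP-binding protein (-38.1 and -20.8), MBD1, a methyl-CpG binding protein (42.3 and 18.4), and NFATC1, a calcium-regulated transcription factor (-30.2 and -16.2). DCC, SMAD7, CDH2, PHLPP1, PMAIP1 and NEDD4L were within 20 points of 0 already in untreated cells. GATA6 was not tested because it lacked values in some libraries.

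The rise across the gene, which compares its right and left sides and does not locate its start, was called for a few of these genes. MBD2 rose by 101, 129 and 123 points in untreated libraries and by 0.3, -9.2, 53.8 and 23.9 points at day 28, a difference of -100 ± 18.6 (SE) with a limma adjusted p of 0.0022. SMAD7, uncalled for its mean, had a rise of 95.8, 108 and 70.3 points in untreated libraries and -14.0, 26.1, 52.5 and 7.5 at day 28 (adjusted p = 0.0043 in limma). YES1 went from 95.2 ± 9.5 to 29.3 ± 9.5 points. BCL2 showed the opposite sign, with -62.8 ± 0.6 points across the gene in untreated libraries and -4.9 ± 21.9 at day 28. These were the 4 called of 8 tested cancer genes (background 23.5% of genes), and of these MBD2 and SMAD7 kept the call without any single library. The call of BCL2 was lost without untreated replicate 1 or 2 or day 28 replicate 4, and that of YES1 without untreated replicate 2.

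The clade B serpins, protease inhibitors that lie side by side on the long arm and share windows, moved as a block. Of 10 genes 8 were tested and 7 were called at day 28, all lower (background 33.5% of genes, 16.7% lower). The median size of polarity over the 8 went from 82.4 to 20.5 points, beside 33.8 and 12.8 points over all tested genes. They are neighbours within 1 stretch, from the initiation zone that holds the starts of SERPINB5 and SERPINB12 to the gap before CDH7. The 7 calls are therefore not 7 independent results. SERPINB12 (chr18:63519110-63569329) had 92.4, 98.7 and 84.8 points in untreated libraries and 13.4, 10.2, 34.1 and 31.8 at day 28, and changed by -69.6 ± 12.6 (SE) with a limma adjusted p of 0.0095. SERPINB4, also known as squamous cell carcinoma antigen 2, went from 86.5 ± 2.8 to 18.6 ± 27.0 points. Its neighbour SERPINB3 went from 88.5 ± 2.3 to 33.5 ± 17.4 and SERPINB5, the epithelial serpin maspin, from 86.2 ± 8.9 to 33.9 ± 12.0 points. SERPINB8 went from 78.5 to 30.8, SERPINB7 from 47.8 to -0.04 and SERPINB11 from 45.9 to 6.2 points. SERPINB2, the inhibitor of urokinase, was not called (46.7 and 5.4 points, limma adjusted p = 0.098), its day 28 replicate 4 standing at -41.7 points. Of 3 serpins tested for the rise, 1 was called, beside a background of 23.5% of genes. It was SERPINB5, from 103 ± 14.8 to 33.3 ± 28.8 points, a call lost without untreated replicate 2.

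The desmosomal cadherins, which join epithelial cells to each other, also lie side by side on the chromosome. Of 7 tested genes 2 were called at day 28, beside a background of 33.5% of genes: DSG4 from -47.1 ± 5.9 to -13.7 ± 7.6 points and DSG3 from -41.3 ± 5.6 to -0.4 ± 15.2 points, both higher. The median size of polarity over the 7 was 31.4 points in untreated and 13.04 at day 28, beside 33.8 and 12.8 points over all tested genes, and none had values for the rise in all libraries.

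Among 13 genes of chromosome maintenance and mitosis, 6 of 11 tested were called at day 28, 3 higher and 3 lower, beside backgrounds of 33.5% of genes in all, 16.8% higher and 16.7% lower. CEP192, which organises the material around centrioles, had 94.0, 79.6 and 83.5 points in untreated libraries and 13.3, 8.5, 45.1 and 25.5 at day 28, with a limma adjusted p of 0.0095. NDC80, the kinetochore subunit that binds microtubules, went from -60.1 to -14.9 points, and its rise across the gene from 87.0 to 25.7, a call lost without untreated replicate 1 or 2. For the rise, NDC80 was the 1 gene called of 4 tested in this list, beside a background of 23.5% of genes. CEP76, a centriole protein, went from -58.9 to -6.2, SMCHD1, which keeps the inactive X chromosome silent, from 43.6 to 15.3, and SKA1, a partner of NDC80 at kinetochores, from 37.2 to -2.0 points. RBBP8 is the sixth.

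Of 17 tested long genes 3 were called at day 28, beside a background of 33.5% of genes. Their median size of polarity was 13.4 points in untreated and 5.9 at day 28, beside 33.8 and 12.8 points over all tested genes. LAMA1, a laminin chain of basement membranes, had -86.4, -86.9 and -71.0 points in untreated libraries and -23.8, -25.8, -33.3 and -28.4 at day 28 (limma adjusted p = 0.0097). DLGAP1, a scaffold protein of synapses, went from 58.4 to 27.9 points, and SETBP1 is the third. A mean over a long gene can cancel where a zone lies inside it, as in PTPRM, where 1 window of 100 kb stood at -84.2 points in untreated cells and the whole gene at -5.4.

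Of the 29 listed genes called for mean polarity at day 28, 9 kept the call without any single library: CEP192, KDSR, LAMA1, RBBP8, SERPINB12, SERPINB4, SMAD4, SS18 and YES1. Leaving out untreated replicate 1, 2 or 3 removed 18, 19 and 10 of the 29 calls, and leaving out day 28 replicate 2 removed 13. None was lost without a day 7 or day 14 library.

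**Figure D5:**
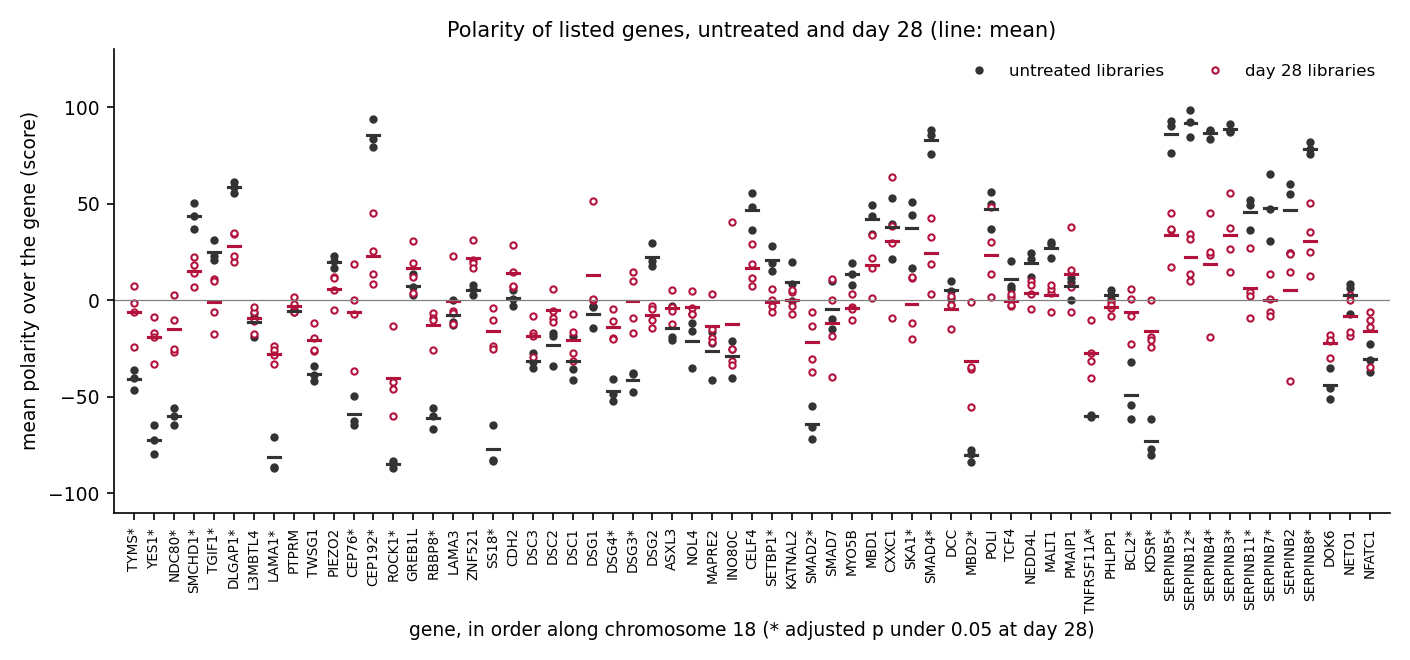
Mean polarity over the gene (vertical axis, score) for the 63 listed genes tested, in their order along chromosome 18, in the 3 untreated libraries (filled) and the 4 day 28 libraries (open), with lines for the means. The 29 genes with a limma adjusted p under 0.05 carry a star; at the serpin genes the untreated points stand far above 0 and the day 28 means lie between -0.04 and 33.9.

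The resistant lines lay far apart. Line 5 had an amplitude of 0.282 on chromosome 18, within the day 28 range, and line 10 had 0.646, near day 14 replicate 2 at 0.652. Their mean of 0.464 ± 0.258 (SD, n = 2) was below untreated (exact permutation p = 0.2, the smallest possible) and above day 28 with overlap (exact p = 0.4). Relative to the other chromosomes the lines lay at -0.01 and 0.01 on the log2 scale (exact p = 1 against untreated). At 100 kb, 30 of 315 windows were called in limma (9.52%, background 6.98%), all toward 0, a count that moved with almost every library. It was 0 without line 5, 1 without untreated replicate 1 or 2, 14 to 18 without untreated replicate 3 or day 28 replicate 2, 3 or 4, 51 to 73 without a day 7 or day 14 library and 80 without line 10. The largest were over RNF138 and MEP1B at 32100001 to 32200000 (76.3 to 20.6 points) and over the urea transporter gene SLC14A2 at 45400001 to 45500000 (-43.3 to 19.4 points). At 20 kb and for genes limma called 0 windows, 0 gene means and 0 rises of chromosome 18, with backgrounds of 0.0% in each. At an unadjusted limma p under 0.05 the counts were 172 of 1246, 68 of 230 and 18 of 89, with backgrounds of 10.8%, 23.8% and 14.9% of the genome. At the initiation zones the rise was 26.9 points in line 5 and 63.5 in line 10.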

How the data were processed

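The deposited files hold 1 polarity score per 20 kb window and library, which the authors computed from TrAEL-seq reads on a scale from -100 to 100. The submitters' processing notes name Trim Galore 0.6.5 and Bowtie2 2.4.1, and list GRCm38 beside GRCh38. The extent of chromosome 18 in the files matches GRCh38. Read counts per window are unknown, so no interval for depth is given, and which strand is positive is not given in the sources used here.

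Windows starting on the 20 kb grid were kept. A library's amplitude is the regression slope of its polarity on untreated pairs that exclude it. Zones are unbroken rises or falls through 0 of at least 40 points in untreated polarity smoothed over 4 windows. Group values were compared by two-sided exact permutation tests over libraries, adjusted over 6 comparisons. Windows, 100 kb means, gene means and rises across genes were tested on the scores by limma 3.58.1 (R 4.3.3; 5 group means, trended eBayes) over the whole genome, with Benjamini-Hochberg adjustment and a threshold of 0.05. The analysis also used Python 3.11.15, numpy 2.4.6, pandas 2.3.3 and matplotlib 3.10.9, and the tests were tried on simulated data. Genes come from RefSeq on GRCh38.p14.

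The members, gene lists and tests were chosen with earlier results of these data known. Named are all listed genes called at day 28, the uncalled cancer genes, the 3 called windows with the largest increase and the 3 with the largest decrease, and the 5 initiation and 3 termination zones with the largest untreated change. Windows of 100 kb called in the resistant lines, SERPINB2, MYO5B and PTPRM values beyond this rule were named after their values were seen. Alternatives covered left-out libraries, the window grid, value filters, zone settings, gap size, library weights, the replicate block, the prior and the samples fitted.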

Additional observations from a re-analysis of the deposited data

Results flagged for a closer look

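In 96 tests for a library far from the others of its group, 6 stood out, and chance flags about 1 in 20 groups. The short arm relative to the long arm was -0.34 on the log2 scale in day 28 replicate 1, the lowest of the 8 osimertinib libraries. The other 5 were all day 28 replicate 4 among the 4 day 28 libraries: mean polarity was highest there for DSG1 (51.4 points) and INO80C (40.3 points) and lowest for SERPINB2 (-41.7 points), and the rise across the gene was lowest for PTPRM (-36.0 points) and highest for BCL2 (27.9 points). Day 28 replicate 4 is also 1 of the 2 libraries with conflicting labels and had a value in 78.9% of chromosome 18 windows, and the part of either in these values was not tested.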

How the results depend on the processing

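The osimertinib differences in amplitude, in the rise at initiation zones, in the fall at termination zones and in polarity along genes kept their direction and an exact p under 0.05 in every alternative run. For chromosome 18 relative to the other chromosomes, the log2 difference ran from -0.0712 to -0.0454 without single libraries. With an exact p above 0.05 it was -0.0419 without day 28 replicates 3 and 4, -0.0323 on all windows valued in the library itself and -0.0581 on the long arm alone (added after seeing the data). For gene bodies against deserts it ran from -0.33 to -0.22 without single libraries and was -0.22 on windows shifted by 10 kb.

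Counts of calls moved more. Here and for the replicate block below, they are given without the share of the genome called in the same setting. They show how far the number moved, and not how chromosome 18 compares with the genome. Without single libraries, 20 kb windows ran from 0 to 80 at day 7, 0 to 51 at day 14 and 0 to 282 at day 28. Windows of 100 kb ran from 36 to 105, 10 to 69 and 123 to 176, and from 0 to 80 in the resistant lines. Gene means ran from 0 to 40, 0 to 19 and 21 to 98, and rises from 1 to 18, 0 to 10 and 11 to 33. With limma array weights the 20 kb windows gave 3, 1, 459 and 18 calls at day 7, day 14, day 28 and in the resistant lines, 100 kb windows 26 at day 14 and 104 in the resistant lines, gene means 0, 1 and 31 at day 7, day 14 and in the resistant lines, and rises 5, 1 and 12. With the 2 groups alone, 20 kb windows gave 0 at day 14, 377 at day 28 and 138 in the resistant lines, gene means 0 at day 14 and 17 in the resistant lines, and rises 6 in the resistant lines. Without day 28 replicates 3 and 4, 20 kb windows gave 12, 7 and 120 at days 7, 14 and 28, 100 kb windows 15 in the resistant lines, and gene means 9 and 4 at days 7 and 14. With these replicates placed at day 7, 20 kb windows gave 0 and gene means 60 at day 7. Without the trend, rises gave 7 at day 14. Features valued in the 12 libraries other than day 7 replicate 1, added after seeing the data, gave 4, 41 and 329 calls for 20 kb windows at days 7, 14 and 28, 90, 274 and 50 for 100 kb windows at day 14, day 28 and in the resistant lines, and 0 for gene means at day 7. The larger counts of that setting come with more windows tested, and the cause of the other changes was not tested.

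Deviations of same-numbered libraries correlated between -0.07 and 0.07 over 13 pairs, and those of differently numbered libraries between -0.11 and 0.11 over 31 pairs. The deviations of the replicates mirror each other at day 7 and at day 14, so several of these values repeat. Low values do not exclude a pairing, so this check cannot decide whether replicate numbers pair the libraries. With the replicate block, 20 kb windows gave 0, 0 and 0 calls at days 7, 14 and 28, 100 kb windows 46, 22 and 145, gene means 0, 0 and 37, and rises 3, 0 and 18. For single genes at day 28, 1471 of 1621 values kept their side of the threshold, 125 lost the call, 25 gained it and 0 reversed. Unknown read depth limits every value.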
